A study of Homo sapiens with 8 samples.

Results

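The transcripts described here are those of 9 regulators of G-protein signalling, RGS1, RGS2, RGS3, RGS10, RGS12, RGS14, RGS16, RGS18 and RGS19, and of GNAS, which encodes the stimulatory G-protein alpha subunit. These 10 genes were taken by symbol from a table of 38551 genes with values, of which 13179 had enough counts to be tested. RGS16 was chosen for its strong decrease under PR-957 in these libraries. GNAS was chosen as a gene that the study names among those down-regulated by PR-957 in its RNA-sequencing of MOLM-13. The values of both are therefore given as a description with no test. The other 8 genes are expressed members of the family, and RGS5 and RGS20, which also had enough counts to be tested, are not among the 10 and are given for comparison. All 10 passed the filter on low counts, and the lowest count of any of them in any library was 14, for RGS3, so none passed it through 1 group alone.

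Libraries came from MOLM-13, an established human line of acute myeloid leukemia in which KMT2A is rearranged. To assess transcription after inhibition of the immunoproteasome, cells in 4 libraries had been given 100 nM PR-957 for 72 h, and cells in 4 control libraries had been given the diluent DMSO for the same time. PR-957, also named ONX-0914, blocks PSMB8, which is one of the catalytic subunits of the immunoproteasome. Both groups shared the same line, medium and library kit. The replicates were labelled only by number, and nothing states that they came from separate cultures, so p-values measure the spread between these libraries, which may be technical.

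Receptors that couple to G proteins load GTP onto the G-protein alpha subunit, which then parts from the beta and gamma subunits, and each signals to its own effectors. RGS proteins bind the active alpha subunit and speed up its hydrolysis of GTP, which ends the signal. Most act on the Gi and Gq classes of alpha subunit, whereas the Gs subunit made from GNAS, which switches on adenylyl cyclase and raises cyclic AMP, is not among their usual substrates. In blood cells, RGS proteins are best known for limiting responses to chemokines. The family members measured here fall into the R4 class of small proteins (RGS1, RGS2, RGS3, RGS16, RGS18), the R12 class (RGS10, RGS12, RGS14) and the RZ class (RGS19).

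RGS16, RGS18, RGS1 and RGS2 lie on the long arm of chromosome 1. In the gene models used for counting (build hg38), RGS16 occupies chr1:182598623-182604389 on the minus strand in 5 exon blocks. RGS18 (chr1:192158462-192187172), RGS1 (chr1:192575773-192580024) and RGS2 (chr1:192809039-192812275) lie on the plus strand in a run of RGS genes whose order is RGS18, RGS21, RGS1, RGS13 and RGS2. The gaps in that run were 130, 208, 56.1 and 149 kb. The 250 bases before the RefSeq start of these 4 genes (build GRCh38.p14), each in the direction of transcription, are shown because RGS16, RGS18 and RGS1 gave the largest log2 fold changes of the 10 genes and RGS2 belongs to the same run as RGS1 and RGS18. Capitals mark the 5 letters CGTCA, the reverse complement of TGACG, the short core of the cyclic AMP response element.
RGS16, chr1:182604390-182604639, minus strand: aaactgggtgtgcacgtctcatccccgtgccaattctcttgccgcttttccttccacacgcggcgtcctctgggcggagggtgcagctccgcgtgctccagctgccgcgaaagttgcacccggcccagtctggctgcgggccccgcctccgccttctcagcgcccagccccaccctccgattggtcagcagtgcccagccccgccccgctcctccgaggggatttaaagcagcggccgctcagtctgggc
RGS18, chr1:192158212-192158461, plus strand: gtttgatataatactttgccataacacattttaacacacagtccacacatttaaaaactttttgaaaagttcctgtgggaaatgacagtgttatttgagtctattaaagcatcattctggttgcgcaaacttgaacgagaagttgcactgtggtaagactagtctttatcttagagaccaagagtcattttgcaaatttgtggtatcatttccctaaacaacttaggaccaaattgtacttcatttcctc
RGS1, chr1:192575523-192575772, plus strand: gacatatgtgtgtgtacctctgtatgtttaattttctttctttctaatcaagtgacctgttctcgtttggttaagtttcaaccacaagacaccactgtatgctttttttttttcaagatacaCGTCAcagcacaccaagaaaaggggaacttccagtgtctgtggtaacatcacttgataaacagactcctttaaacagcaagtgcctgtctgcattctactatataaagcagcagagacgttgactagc
RGS2, chr1:192808789-192809038, plus strand: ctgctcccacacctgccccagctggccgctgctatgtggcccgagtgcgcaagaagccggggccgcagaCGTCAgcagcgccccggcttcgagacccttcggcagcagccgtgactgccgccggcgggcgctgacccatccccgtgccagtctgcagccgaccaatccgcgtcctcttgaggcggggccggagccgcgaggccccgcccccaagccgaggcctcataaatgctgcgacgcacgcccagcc

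GC content differed widely among these promoters, at 68.4% for RGS16, 34.8% for RGS18, 39.2% for RGS1 and 72.8% for RGS2, against a median of 58.0% over 35116 RefSeq promoters of the same length. The 10 genes had 25 such promoters, and 5 motifs were searched on both strands. The full cyclic AMP response element TGACGTCA was in 0 of the 25 and in 1.65% of all promoters. The short core TGACG, which is part of the full element, was in 7 of the 25 (RGS1, RGS2, RGS3, RGS12 and GNAS) and in 21.2% of all promoters. In RGS1 it began 128 bases before the start, and in RGS2 it began 181 bases before the start. The ATF4 and C/EBP element TGATGNAA (3.14% of all promoters) and the AP-1 element TGANTCA (6.57%) were each in 1 promoter, of GNAS. The EGR element GCGNGGGCG (8.41%) was in 6 promoters, of RGS10, RGS12, RGS19 and GNAS. The promoters of RGS16, RGS18 and RGS14 held none of these letters. These matches describe the sequence only.

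Library totals ran from 16675036 to 23111223 fragments. Values below are CPM, that is, counts divided by library size after the TMM correction of edgeR. Over all genes, 3045 were higher and 3098 lower under PR-957 (edgeR quasi-likelihood test, Benjamini-Hochberg adjusted p under 0.05), and scaling by library totals alone gave 4066 higher and 2353 lower. DMSO replicate 4 stood apart, with 133 tested genes at more than 2 times the highest other DMSO library, where the other 7 libraries had between 2 and 16 such genes against their own groups. Along the second principal component (13.5% of variance), replicates 1 and 2 of both groups lay apart from replicates 3 and 4, a split that the labels do not explain. The 8 myeloid markers looked at, among them CD33, SPI1 and CEBPA, all averaged at least 1 CPM. Of the same list, MPO ran from 159 to 196 CPM with DMSO and from 469 to 553 CPM with PR-957, and FLT3 from 331 to 347 CPM and from 155 to 194 CPM, and their part in the results below was not tested. Markers of T, B, erythroid, megakaryocytic, epithelial and stromal cells, 11 genes without PECAM1, summed to 3.44 to 5.80 CPM in the DMSO libraries and to 3.06 to 4.84 CPM with PR-957, with CD3E and PF4 at 0. PECAM1, which marks endothelium and some myeloid cells, ran from 42.7 to 63.2 CPM without the inhibitor and from 80.7 to 85.1 CPM with it. In bulk RNA, fewer cells that express a gene and less RNA per cell cannot be told apart.

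Among the 8 genes other than RGS16 and GNAS, the groups did not overlap for RGS18 and RGS1. Of all tested genes, 42.5% had no overlap. The groups also did not overlap for RGS16 and GNAS, but these were chosen with their decrease known. RGS16 was 4.27-fold lower under PR-957 and RGS18, of the same R4 class, was 1.87-fold higher. RGS10 was slightly lower and RGS14 slightly higher, but both calls were lost when some single libraries were left out. Whether RGS1, RGS2, RGS12 and RGS14 were called depended on DMSO replicate 4, as did the fold change of RGS3. RGS19 differed little. Of the 8 genes that were not chosen on their change, 2 were higher (RGS14 and RGS18) and 1 was lower (RGS10), or 37.5%, where 46.6% of all 13179 tested genes were called (23.1% higher and 23.5% lower). The median log2 fold change of these 8 genes was 0.02, against 0.00 over all tested genes. Their share of calls was no larger than that of genes at large. Without DMSO replicate 4, 3 were higher (RGS2, RGS12 and RGS18) and 2 lower (RGS1 and RGS10), or 62.5%, where 47.2% of all genes were called (23.4% higher and 23.7% lower).

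**Figure D1:**
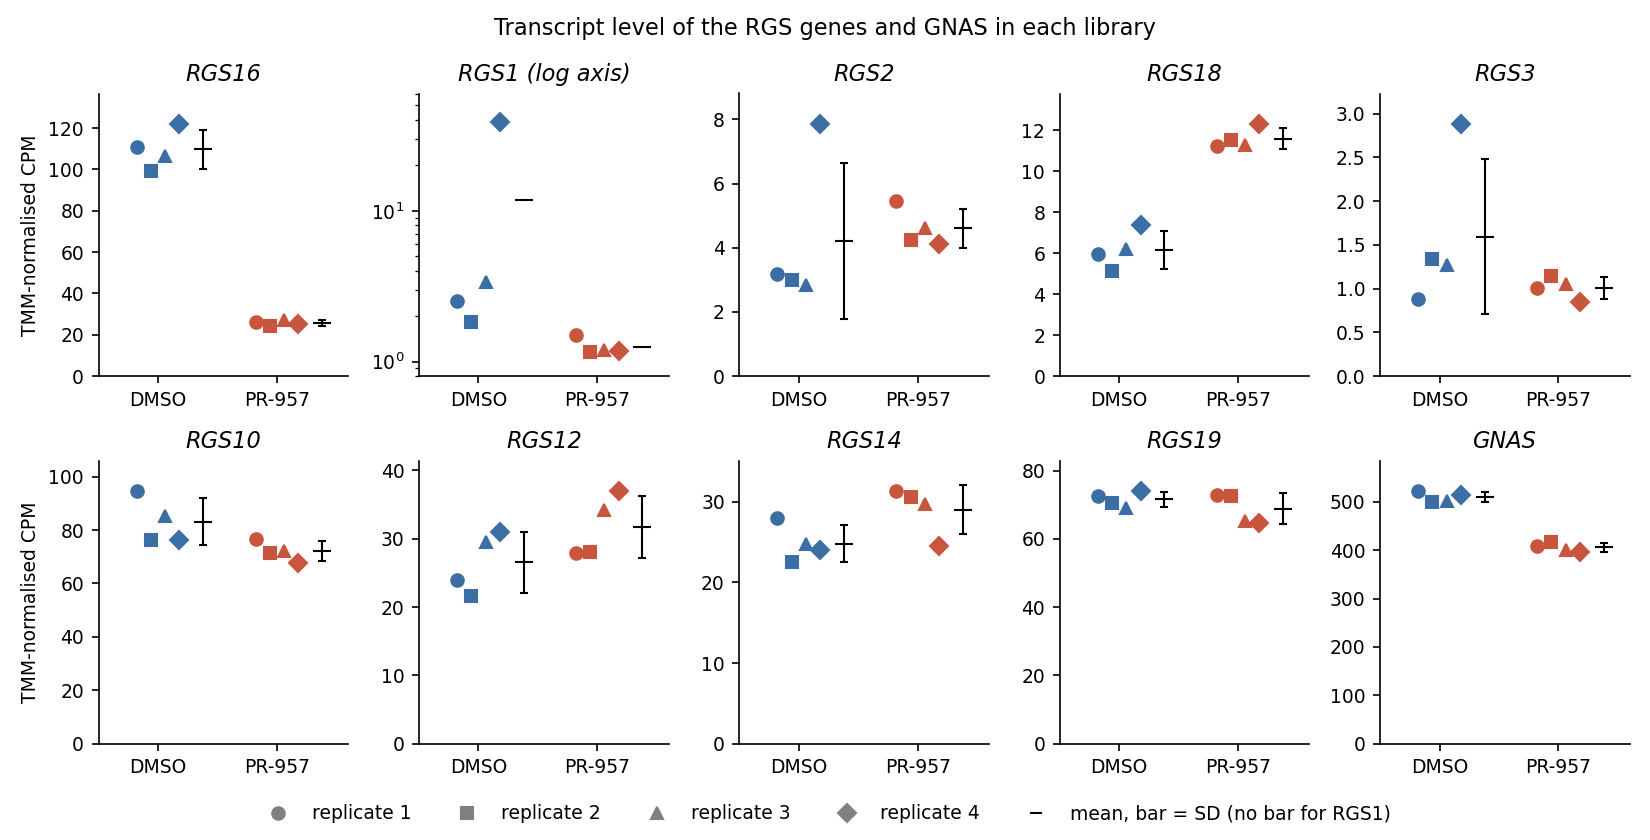
TMM-normalised CPM of the 9 RGS genes and GNAS in each of the 8 libraries, DMSO in blue and PR-957 in red, with a marker shape for each replicate number. The black dash is the group mean and its bar the SD (n = 4), left out for RGS1, whose axis is logarithmic. RGS16 and GNAS lie lower and RGS18 higher in all 4 PR-957 libraries, and DMSO replicate 4 lies far above the other DMSO libraries for RGS1, RGS2 and RGS3.

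In the R4 class, RGS16 limits signalling through Gi and Gq and is known as an inducible gene in lymphocytes and monocytes. The 4 DMSO libraries held 111, 99.2, 106 and 122 CPM of RGS16, and the 4 PR-957 libraries held 26.4, 24.2, 27.1 and 25.0 CPM. The lowest DMSO library was thus far above the highest PR-957 library. Mean levels were 109.7 ± 9.58 CPM for DMSO and 25.7 ± 1.31 CPM for PR-957 (SD, n = 4), and the log2 fold change was -2.09 (SE 0.07). Of 13179 tested genes, RGS16 had the 63rd lowest log2 fold change. Its counts were deep, 8115 in all in DMSO and 1977 in PR-957. Replicates 1 and 2 alone gave -2.05 and replicates 3 and 4 alone gave -2.14 on the log2 scale.

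RGS18 is best known from platelets and their precursors, where it restrains responses through Gi and Gq. DMSO libraries held 5.95, 5.12, 6.22 and 7.38 CPM, and PR-957 libraries held 11.3, 11.5, 11.3 and 12.3 CPM. No PR-957 library fell to the level of a DMSO library, as was the case for 20.8% of all tested genes in this direction. RGS18 rose from 6.17 ± 0.934 to 11.6 ± 0.497 CPM (SD, n = 4), by 0.90 on the log2 scale (SE 0.12, edgeR adjusted p = 7.39e-06). Of the 8 genes tested, it alone passed the threshold in all 19 alternatives, with adjusted p from 3.89e-10 to 0.0018. The platelet and megakaryocyte genes ITGA2B and GP9 were below 2 CPM in every library and PF4 was at 0. For DMSO and PR-957 in turn, ITGA2B ran from 0.689 to 1.09 CPM and from 0.279 to 0.731 CPM, and GP9 from 1.00 to 1.78 CPM and from 0.776 to 1.51 CPM.

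RGS1 is an activation gene of lymphocytes that dampens responses to chemokines. Its values in DMSO replicates 1 to 3 were 2.51, 1.84 and 3.38 CPM, and DMSO replicate 4 held 39.1 CPM, 11.6 times the highest of the other three. PR-957 libraries held 1.50, 1.15, 1.19 and 1.18 CPM. All PR-957 libraries were below all DMSO libraries, as was the case for 21.7% of all tested genes, but 87.4% of the DMSO counts came from replicate 4 (895 of 1024). With all libraries the log2 fold change was -3.26 (SE 1.29) and did not pass the threshold (edgeR adjusted p = 0.0831). Without DMSO replicate 4 it was -1.03 (SE 0.26, edgeR adjusted p = 0.00276), a call with a smaller difference than that of all libraries. That fit compares 129 counts in 3 DMSO libraries with 96 in 4 PR-957 libraries, and DESeq2 gave RGS1 no adjusted p in the fit of all 8.

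In DMSO replicate 4, RGS1 ranked 4th of 13179 tested genes by its ratio to the highest other DMSO library. The 3 genes above it, named after their values were seen, were IFIT2 (20.9 times), IFIT1 (13.1 times) and IFIT3 (12.2 times), which are induced by interferon. Their part in the RGS1 value was not tested. RGS13, the next RGS gene after RGS1 on the chromosome, had 19 counts over all 8 libraries, of which 17 were in DMSO replicate 4 and 2 in DMSO replicate 2. LOC107985241, which lies between them on the same strand, had 15 of its 18 counts there. MIR4426, between RGS13 and RGS2 on the same strand, did not stand out in that library. It had 27, 31, 46 and 51 counts in DMSO replicates 1 to 4 and 25 to 42 in PR-957. RGS21, on the other side of RGS1, had 0 counts in every library.

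**Figure D2:**
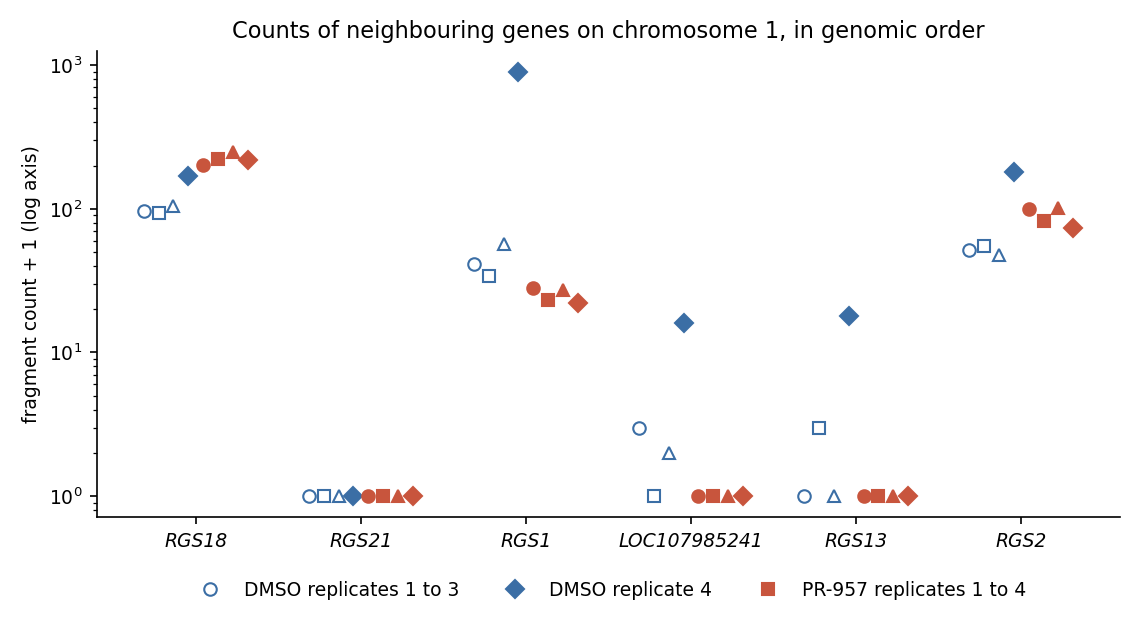
Fragment counts plus 1, on a logarithmic axis, for the RGS genes of the chromosome 1 run and LOC107985241, in genomic order but not to scale. Other genes of this stretch, among them MIR4426, are not drawn. Open blue markers are DMSO replicates 1 to 3, filled blue diamonds DMSO replicate 4 and red markers the 4 PR-957 libraries. DMSO replicate 4 stands above all other libraries for RGS1 (895 counts), LOC107985241 (15), RGS13 (17) and RGS2 (180), but not for RGS18 (169).

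RGS2 acts chiefly on Gq and is known as an immediate early gene. DMSO replicates 1 to 3 held 3.19, 3.01 and 2.84 CPM, and DMSO replicate 4 held 7.86 CPM. The PR-957 libraries, at 5.46, 4.23, 4.61 and 4.11 CPM, lay between them. With all libraries there was no call, at a log2 fold change of 0.09 (SE 0.31, edgeR adjusted p = 0.826). Without DMSO replicate 4, RGS2 was higher under PR-957 by 0.61 (SE 0.18, edgeR adjusted p = 0.00821), with no overlap between groups. The sign also turned with the replicates used, from 0.64 in replicates 1 and 2 to -0.33 in replicates 3 and 4.

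RGS3, which acts on Gi and Gq and has several long forms, was the least abundant of the 10. DMSO libraries held 0.877, 1.34, 1.27 and 2.88 CPM and PR-957 libraries 1.00, 1.15, 1.05 and 0.844 CPM. Here too DMSO replicate 4 was the highest, and the remaining libraries overlapped. The log2 fold change of -0.69 (SE 0.33, edgeR adjusted p = 0.0946) became -0.20 (SE 0.30, edgeR adjusted p = 0.615) without that library. Without DMSO replicate 1 it was -0.88 and passed the threshold (edgeR adjusted p = 0.0356).

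In the R12 class, RGS10 is a short protein selective for Gi, abundant in microglia and other myeloid cells. DMSO libraries held 94.5, 76.4, 85.3 and 76.4 CPM and PR-957 libraries 76.7, 71.5, 72.3 and 67.6 CPM. The groups touched, since PR-957 replicate 1 exceeded DMSO replicates 2 and 4. RGS10 fell by 0.21 on the log2 scale (SE 0.07, edgeR adjusted p = 0.0192). The call was lost with scaling by library totals alone (-0.13, adjusted p = 0.106) and when DMSO replicate 1 (adjusted p = 0.0943), DMSO replicate 3 (0.0516) or PR-957 replicate 4 (0.0551) was left out.

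RGS12 and RGS14 are larger proteins that also carry Ras-binding domains and a GoLoco motif, which holds Gi subunits in their inactive form. RGS14 held 28.0, 22.5, 24.8 and 24.0 CPM in DMSO and 31.3, 30.5, 29.8 and 24.6 CPM in PR-957. In PR-957 replicates 1 to 3 it was above every DMSO library, and in PR-957 replicate 4 it was within the DMSO range. RGS14 rose by 0.23 on the log2 scale (SE 0.09, edgeR adjusted p = 0.0377). That call held without DMSO replicate 1 or PR-957 replicate 4 and was lost when any other library was left out, with edgeR adjusted p from 0.0628 to 0.124.

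RGS12 held 24.0, 21.7, 29.5 and 31.0 CPM in DMSO and 27.9, 28.1, 34.2 and 36.9 CPM in PR-957. Replicates 3 and 4 were higher than replicates 1 and 2 in both groups, and within each of these pairs of replicates the PR-957 libraries were above the DMSO libraries. The log2 fold change of 0.26 (SE 0.12) did not pass the threshold (edgeR adjusted p = 0.112). A term for replicates 1 and 2 against 3 and 4 left the change at 0.26 with an SE of 0.07 (edgeR adjusted p = 0.00282), and leaving out DMSO replicate 4 gave 0.34 (edgeR adjusted p = 0.0289). Within the pairs, RGS12 was 0.30 higher in replicates 1 and 2 (edgeR adjusted p = 0.0152) and 0.23 higher, not past the threshold, in replicates 3 and 4 (edgeR adjusted p = 0.0944).

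RGS19, of the RZ class, was first found as a partner of the Gi subunit GNAI3. DMSO libraries held 72.7, 70.6, 69.0 and 73.9 CPM and PR-957 libraries 72.9, 72.7, 65.3 and 64.6 CPM. The ranges overlapped, and the log2 fold change was -0.06 (SE 0.06, edgeR adjusted p = 0.460). It passed the threshold in 0 of 19 alternatives, with adjusted p from 0.197 to 0.825.

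**Figure D3:**
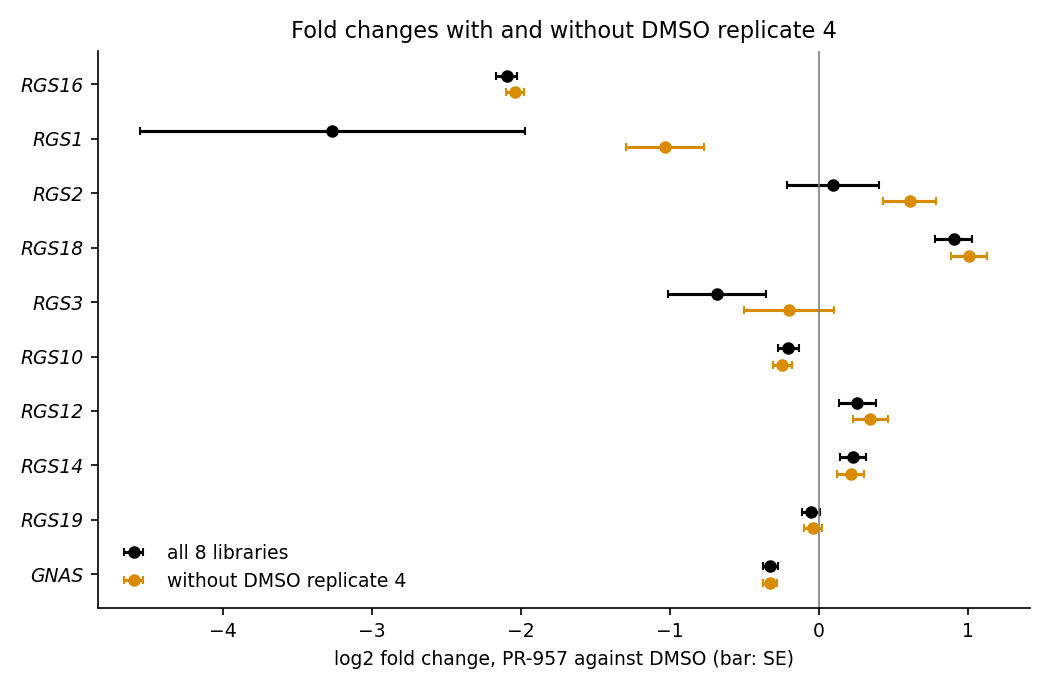
Log2 fold change of PR-957 against DMSO for each gene, with bars of 1 SE, from all 8 libraries (black) and without DMSO replicate 4 (orange). RGS1 moves from -3.26 to -1.03, RGS2 from 0.09 to 0.61 and RGS3 from -0.69 to -0.20, while RGS16 (-2.09 and -2.04), RGS18 (0.90 and 1.01) and GNAS (-0.33 in both) move little.

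GNAS drew the most counts of the 10 genes. DMSO libraries held 522, 499.5, 503 and 514 CPM and PR-957 libraries 408, 417, 401 and 396 CPM. The groups did not overlap, but the difference was modest beside that of RGS16, from 509 ± 10.3 to 406 ± 9.20 CPM (SD, n = 4) or 1.26-fold lower, with a log2 fold change of -0.33 (SE 0.05). Scaling by library totals alone gave -0.25. The study names GNAS with a heatmap whose legend sets a fold-change cutoff, and the 1.26-fold difference found here does not reach that cutoff. The locus at chr20:58839681-58911196 on the plus strand has several alternative starts, and its 23 exon blocks were counted together, so the value does not separate the Gs transcript from the others. Of its exon bases, 0.483% lie opposite exons of LOC101927932, and counting was set to the reverse strand.

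Compared per kilobase of exon, the 10 genes covered a wide range of levels. In DMSO the median CPM per kb was 81.4 for RGS10, 66.3 for GNAS, 45.2 for RGS16, 16.9 for RGS19 and 9.17 for RGS14, with no overlap between neighbours in this order. RGS2 (2.30), RGS1 (2.18), RGS12 (1.92) and RGS18 (1.72) followed, each overlapping the next, and RGS3 was last at 0.178. Under PR-957, RGS16 at 10.7 CPM per kb came after RGS14, overlapping it (11.3), and RGS18 at 3.23 overlapped RGS2 at 3.28. The length was that of all exons of a gene in any transcript, 13912 bases for RGS12, 7665 for GNAS and 993 for RGS10. This lowers genes with many alternative exons, so the rank of RGS10 above GNAS depends on it. By mean CPM in DMSO, GNAS at 509 was far above RGS10 at 83.2.

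By CPM per kb, RGS10 and RGS16 together made up most of the RGS transcripts, and these shares depend on the exon lengths used. By mean CPM, RGS10 was at 83.2 in DMSO and 72.0 in PR-957, and RGS19 was close to it at 71.5 and 68.9. Of the summed CPM per kb of 21 RGS genes, RGS16 held 26.4 ± 0.652% in DMSO and 8.78 ± 0.455% in PR-957 (SD, n = 4). RGS10 held 48.9 ± 6.41% and 59.6 ± 0.187%, although its own level was lower under PR-957, and in DMSO replicate 4 it held 39.4% while RGS1 held 14.8%. The sum itself was 173 ± 18.8 CPM per kb in DMSO and 122 ± 6.10 in PR-957. With RGS16 and RGS1 left out, it was 118 ± 8.97 and 110.0 ± 5.76 CPM per kb.

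**Figure D4:**
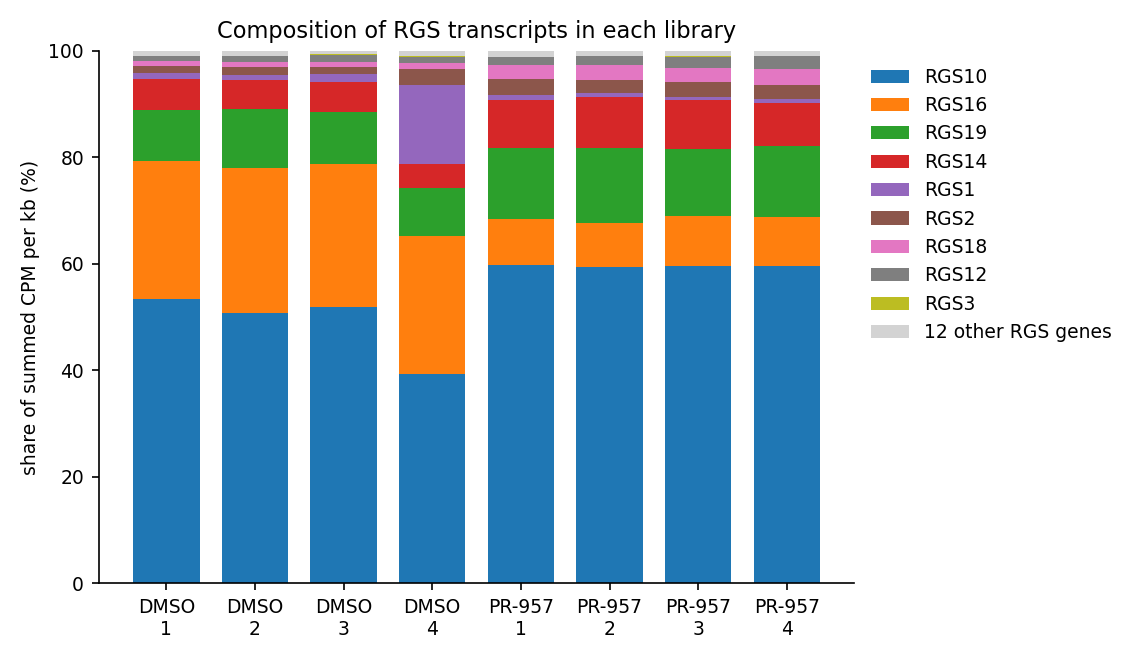
Share of each RGS gene in the summed CPM per kb of 21 RGS genes, in percent, as 1 stacked bar for each library. The RGS16 segment is 26.4% on average in DMSO and 8.78% in PR-957, and a wide RGS1 segment (14.8%) appears in DMSO replicate 4 alone.

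Of the 12 RGS genes not among the 10, 2 passed the filter on low counts and neither was called. RGS5, a regulator best known from pericytes, was at 2.23 ± 0.157 CPM with DMSO and at 1.87 ± 0.484 CPM with PR-957 (log2 fold change -0.24, SE 0.23, edgeR adjusted p = 0.416). RGS20, a relative of RGS19 in the RZ class, was at 2.96 ± 0.674 and 2.57 ± 0.506 CPM (log2 fold change -0.20, SE 0.22, edgeR adjusted p = 0.460). Below the filter, 7 genes had between 1 and 19 counts in all. RGS6, RGS11 and RGS21 had 0 counts in all libraries, which allows up to 0.131 to 0.188 CPM by library (3 counts, counting error only).

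By likeness of pattern, measured as the root mean square difference between mean-centred log2 CPM over the 8 libraries, 11271 genes were compared with RGS16. The closest were DDIT3 (0.0880), a transcription factor of the stress response to unfolded proteins, and DDIT4 (0.103), an inhibitor of mTORC1. P2RX7 (0.125), an ATP-gated ion channel, VEGFA (0.130), the vascular growth factor, and CBS (0.159), an enzyme of cysteine synthesis, came next. The median over all genes was 1.05. With DMSO and PR-957 in turn, DDIT3 was at 82.2 ± 9.03 and 18.8 ± 0.934 CPM, and DDIT4 at 1196 ± 176 and 267 ± 3.88 CPM, so that the likeness rests mainly on a difference between groups of about the same size. The genes nearest to GNAS were N4BP2L1 (0.0213), RTL8A (0.0250), LMF1 (0.0255), ZNF184 (0.0262) and HOOK2 (0.0264), against a median of 0.225.

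The remaining genes of the pathway were followed in 7 lists, of which the proteins with an RGS domain outside the RGS family come first. Shares called in these lists are set beside 46.6% of all tested genes (23.1% higher and 23.5% lower). The lists were chosen with earlier results of these data known, so their shares are a description only. Of 13 tested, 2 were higher and 5 lower under PR-957 (53.8% called), with a median log2 fold change of -0.08 against 0.00 over all tested genes. GRK2, a kinase that shuts off active receptors, was the most abundant and fell from 528.9 ± 14.01 to 403 ± 14.2 CPM (SD, n = 4), by 0.39 on the log2 scale (SE 0.05, edgeR adjusted p = 5.04e-06). Its relative GRK5 rose from 4.45 ± 0.0510 to 7.54 ± 0.946 CPM, by 0.76 on the log2 scale (SE 0.14, edgeR adjusted p = 0.000182). The sorting nexin SNX25 fell by 0.33 (SE 0.10, edgeR adjusted p = 0.0089).

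Among receptors of myeloid cells, 38 of 58 were tested, 13 were higher and 8 lower (55.3% called, against 46.6% of all tested genes), with a median log2 fold change of 0.20. GPR183, which guides cells along oxysterols, rose from 6.35 ± 2.29 to 21.5 ± 0.635 CPM (SD, n = 4), by 1.73 on the log2 scale (SE 0.18, edgeR adjusted p = 1.09e-05). PTAFR, the receptor for platelet-activating factor, rose by 1.18 (SE 0.19), and the chemokine receptor CCR2 by 1.16 (SE 0.13). CXCR4, the receptor that holds blood progenitors in the marrow, rose from 74.6 ± 11.8 to 110.1 ± 7.34 CPM, by 0.56 on the log2 scale (SE 0.10, edgeR adjusted p = 0.000462). ADGRE5, an adhesion receptor with the highest level per kilobase of this list, fell by 0.32 (SE 0.08, edgeR adjusted p = 0.00671), and by 0.20 without DMSO replicate 4 (edgeR adjusted p = 0.00363). Outside the rule for naming genes, C5AR1, the receptor for complement C5a, had the lowest log2 fold change of the list at -2.80 (SE 0.35, edgeR adjusted p = 2.63e-06), from 1.84 ± 0.555 to 0.258 ± 0.0508 CPM.

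Alpha subunits other than GNAS gave 2 higher and 1 lower of 7 tested (42.9% called, against 46.6%). Their median log2 fold change was 0.00. GNAI2, the most abundant of them and a Gi subunit, rose from 231 ± 14.4 to 299 ± 10.6 CPM (SD, n = 4), by 0.38 on the log2 scale (SE 0.06, edgeR adjusted p = 1.98e-05). GNAI3, also of the Gi class, was at 97.2 ± 4.72 and 97.5 ± 2.19 CPM (log2 fold change 0.00, SE 0.05). In the Gq class, GNA11 rose by 0.39 (SE 0.09, edgeR adjusted p = 0.00205), GNAQ fell by 0.17 (SE 0.05, edgeR adjusted p = 0.0172) and GNA15 was not called (0.09, SE 0.08). GNA13, of a separate class, was not called at -0.14 (SE 0.07, edgeR adjusted p = 0.134).

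Of 10 beta and gamma subunits tested, 4 were higher and 2 lower (60% called, against 46.6% of all tested genes). The main beta subunit GNB1 was not called (log2 fold change 0.05, SE 0.05), and GNB2 rose by 0.19 (SE 0.05, edgeR adjusted p = 0.00813). GNB5, the partner of another class of RGS proteins, fell by 0.37 (SE 0.09, edgeR adjusted p = 0.00322). Among gamma subunits, GNG2 rose by 0.60 (SE 0.18) and GNG7 fell by 0.52 (SE 0.09), while GNG5, the highest per kilobase, was not called (0.15, SE 0.06, edgeR adjusted p = 0.0581). Of 11 other regulators of G proteins, 5 were higher and 3 lower (72.7% called). The GoLoco protein GPSM2 rose by 0.46 (SE 0.10) and its relative GPSM3 fell by 0.59 (SE 0.14). PCP2, another GoLoco protein, fell by 0.53 (SE 0.17, edgeR adjusted p = 0.0178), a call lost without DMSO replicate 4 (adjusted p = 0.0811). ARRB2, an arrestin that uncouples receptors, rose by 0.22 (SE 0.06). The related arrestin ARRB1, outside the rule for naming genes, fell from 101 ± 3.57 to 84.6 ± 6.24 CPM (SD). Its fall was 0.26 on the log2 scale (SE 0.06, edgeR adjusted p = 0.00142).

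Downstream of Gs, 9 of 23 tested genes of the cyclic AMP pathway were higher and 6 lower (65.2% called, against 46.6% of all tested genes), with a median log2 fold change of 0.03. PRKACA, a catalytic subunit of protein kinase A, rose from 32.6 ± 1.85 to 51.5 ± 2.23 CPM (SD, n = 4), by 0.65 on the log2 scale (SE 0.06, edgeR adjusted p = 1.33e-07). PRKACB, another catalytic subunit, was outside the rule for naming genes and fell from 53.7 ± 7.29 to 40.6 ± 3.34 CPM, by 0.41 on the log2 scale (SE 0.09, edgeR adjusted p = 0.00102). The regulatory subunit PRKAR1B rose by 0.64 (SE 0.10), and the main regulatory subunit PRKAR1A was not called (-0.05, SE 0.05). PRKAR2B rose by 0.59 (SE 0.23, edgeR adjusted p = 0.0446), a call lost without DMSO replicate 4 (adjusted p = 0.105). ADCY7, the adenylyl cyclase of blood cells, rose by 0.23 (SE 0.07, edgeR adjusted p = 0.00696).

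Downstream of Gq and G13, 6 of 16 tested genes were higher and 3 lower (56.25% called, against 46.6% of all tested genes), with a median log2 fold change of 0.14. ITPR3, a calcium release channel, rose from 17.1 ± 0.267 to 28.2 ± 3.79 CPM (SD, n = 4), by 0.72 on the log2 scale (SE 0.09, edgeR adjusted p = 2.76e-06). The related channel ITPR1, outside the rule for naming genes, fell from 38.6 ± 1.01 to 28.2 ± 1.99 CPM, by 0.45 on the log2 scale (SE 0.07, edgeR adjusted p = 2.41e-05). PIK3R5, a regulator of the PI3K that beta and gamma subunits activate, rose by 0.58 (SE 0.14), and the phospholipase PLCB3 by 0.50 (SE 0.07). The GTPase RHOA fell by 0.19 (SE 0.05, edgeR adjusted p = 0.00533). Without DMSO replicate 4 the lists gave 3 higher and 4 lower for RGS-domain proteins, 15 and 7 for receptors, 2 and 1 for alpha subunits, 4 and 2 for beta and gamma subunits, 5 and 2 for other regulators, 8 and 4 for the cyclic AMP pathway, and 8 and 3 for Gq and G13 effectors.

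**Figure D5:**
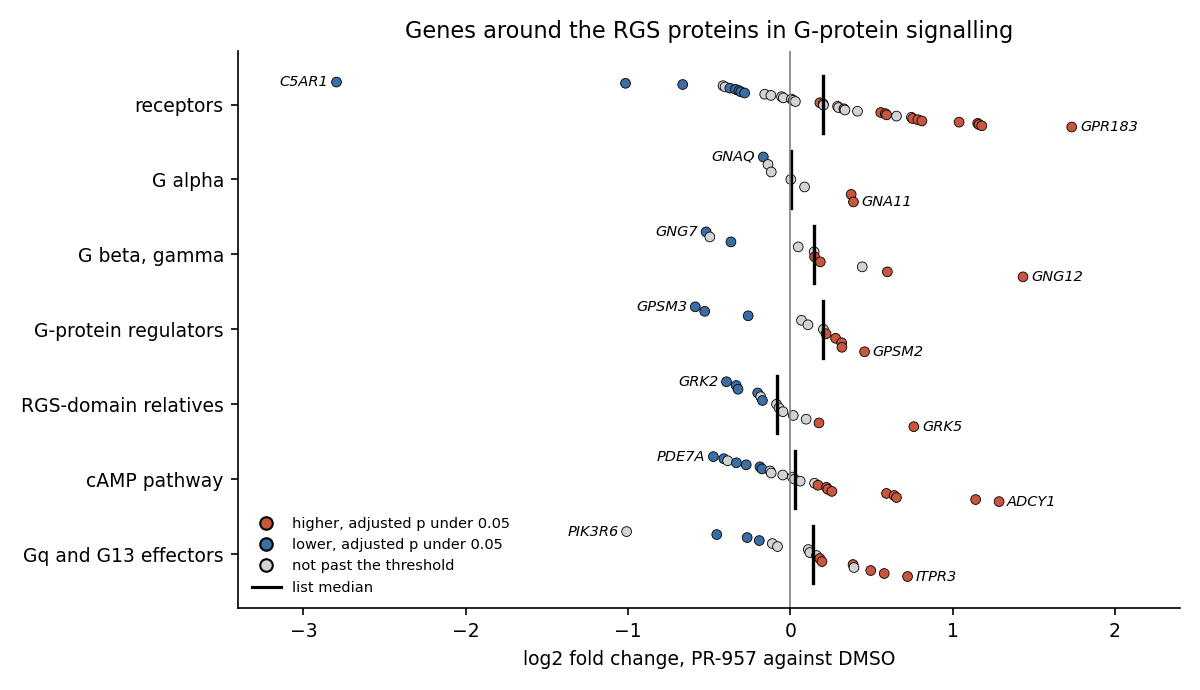
Log2 fold change of PR-957 against DMSO for each tested gene of 7 pathway lists, 1 point a gene, in red where higher and in blue where lower at an edgeR adjusted p under 0.05, and in grey otherwise. Vertical dashes are list medians, and names mark the lowest and highest gene of each list, taken after their values were seen. Each list holds genes in both directions, and the medians run from -0.08 to 0.20.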

How the data were processed

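RNA-sequencing of MOLM-13 cells was analysed from 8 libraries, 4 given DMSO and 4 given 100 nM PR-957 for 72 h, grouped by sample title. The study describes TruSeq libraries, read as pairs and aligned to hg38, and the submitters' processing notes name Trimmomatic 0.39, STAR 2.7.10a, featureCounts 2.0.1 and DESeq2. The deposited values are raw fragment counts per gene, which the authors made with featureCounts against RefSeq gene models, with both ends mapped and on the reverse strand, per the file headers, and did not normalise. The header names 16 libraries, of which 8 are in the table and 8 were not analysed here. Left out were 6 genes without values. A table of the authors' own comparison, with fold changes and p-values, was not used.

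Counts were fitted with edgeR 4.0.16 in R 4.3.3 (filterByExpr, TMM, glmQLFit with robust estimation, glmQLFTest, two-sided), with no covariate, and adjusted by Benjamini-Hochberg over 13179 genes. CPM are counts divided by the effective library size (total times TMM factor) and scaled to a common size, and levels between genes were divided by exon length. The members and gene lists were chosen with earlier results of these data known. Genes named from a list were the 3 largest changes by absolute log2 fold change with an adjusted p under 0.05 and an average log2 CPM of at least 1, and the gene highest per kilobase in DMSO, besides a fixed set (GNAI2, GNAI3, GNAQ, GNA13, GNA15, GNB1, GNB2, ARRB2, GRK2, PRKACA, PRKAR1A, ADCY7 and CXCR4). Likeness used a prior count of 2. Tested on simulated data for this comparison (13056 genes, 200 changed), the fit recovered 91.7% of 2-fold and 64.6% of 1.5-fold changes, with 5.59% of calls false. The simulation had no outlying library and no split between replicates, and in the data 6143 genes were called. These shares may therefore not carry over to the calls given here. The 19 alternatives were DESeq2 1.42.0, limma-voom (limma 3.58.1), RLE, upper-quartile and total-count scaling, no filter, a filter of 1 CPM in 4 libraries, the replicate number as a block, a term for replicates 1 and 2 against 3 and 4, each of these pairs alone, and leaving out each of 8 libraries. Use of molecular identifiers is not stated in the labels or the study's methods.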

Additional observations from a re-analysis of the deposited data

Results flagged for a closer look

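In 90 groups of 4 libraries, covering 45 genes, 6 had a highest or lowest library whose gap to its nearest neighbour, divided by the group's range, was above Dixon's 95% critical value. Chance gives about 1 in 20 groups. DMSO replicate 4 gave 3 of them. For RGS1 it held 39.1 CPM, where the other DMSO libraries held 1.84 to 3.38 CPM (gap 0.959 of the range). For RGS2 it held 7.86 CPM against 2.84 to 3.19 CPM (0.929), and for the receptor ADGRE5 137.5 CPM against 100.7 to 105.9 CPM (0.858). In PR-957, replicate 1 was the highest for RGS1, at 1.50 CPM against 1.15 to 1.19 CPM (0.891), a gap of a few counts (27 against 21 to 26). It was also the highest for the gamma subunit GNG5, at 114 CPM against 97.4 to 99.9 CPM (0.851). PR-957 replicate 4 was the lowest for SNX25, at 11.5 CPM against 13.7 to 13.98 CPM (0.905). What set these libraries apart was not tested.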

How the results depend on the processing

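Under the 19 alternatives, the log2 fold change of RGS16 ran from -2.14 to -2.02, and RGS18 kept its call throughout (0.78 to 1.05). The count of higher members among the 8 tested was 4 in replicates 1 and 2 alone, 1 in replicates 3 and 4 alone and 1 to 3 when single libraries were left out. It was 1 when DMSO replicate 2 or 3, or any of PR-957 replicates 1 to 3, was missing. The count of lower members was 0 with library totals alone and 0 to 2 when single libraries were left out, with 0 when DMSO replicate 3 or PR-957 replicate 4 was missing. With no filter on low counts, 1 RGS gene outside the 10 was called, RGS13 (log2 fold change -5.19, adjusted p = 0.000827), on 19 counts. RGS-domain proteins called were 7 in the fit of all libraries and 4 in replicates 1 and 2 alone and in replicates 3 and 4 alone.

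Leaving out single libraries gave -3.62 to -1.03 for RGS1, -0.0556 to 0.61 for RGS2, -0.88 to -0.20 for RGS3, -0.25 to -0.14 for RGS10, 0.17 to 0.34 for RGS12 and 0.18 to 0.30 for RGS14. RGS2 turned negative without DMSO replicate 1 (log2 fold change -0.02), 2 (-0.05) or 3 (-0.0556), and PR-957 replicate 1 (-0.0033). In replicates 1 and 2 alone, RGS2 (0.64) and RGS12 (0.30) passed the threshold and RGS19 turned to 0.0241. In replicates 3 and 4 alone, RGS3 passed it (-1.16), RGS10 (-0.21) and RGS14 (0.15) lost their calls and RGS2 turned to -0.33. With library totals alone, RGS10 lost its call (-0.13), RGS19 turned to 0.0212 and GNAS moved to -0.25. RGS12 passed the threshold with no filter (0.25) and with a term for replicates 1 and 2 against 3 and 4 (0.26). The cause of these changes was not tested.

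With the replicate number as a block, RGS12 was called (0.26, adjusted p = 0.00195), and 3513 genes were higher and 3400 lower. Deviations of same-numbered libraries correlated at 0.0985 to 0.213, and those of libraries with different numbers at -0.187 to 0.114. The main fit had no block because not every same-numbered pair was above 0.1, a limit set by choice. Since 7 of 8 libraries correlated best with their own number, pairing remains possible, and the call of RGS12 depends on it. Low counts limit RGS1 and RGS3, which had 96 and 78 counts in the 4 PR-957 libraries together.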
